A study of Mus musculus with 2 samples.

Results

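The genes described here are 10 components of cyclic AMP signalling in mouse B cells: the phosphodiesterases Pde2a, Pde4b, Pde7a and Pde8a, the adenylate cyclase Adcy7, the protein kinase A (PKA) subunits Prkaca, Prkar1a and Prkar2a, and the transcription factors Creb1 and Crem. They were chosen by gene symbol, with earlier results of these data known, as all probe sets annotated to only 1 of these genes. They comprise 10 of the 12393 genes named on the array and 23 of its 22626 probe sets. Expression was compared between follicular B cells, which circulate through the follicles of lymphoid organs, and marginal zone B cells, which lie at the edge of the splenic white pulp and meet antigens carried by the blood. There was 1 single-colour Affymetrix array of each population, from wild-type female C57BL/6 mice with no treatment named in the labels, which give no age. Spleen cells of 3 mice were enriched with beads against B220, follicular cells were sorted as high for CD23 and intermediate for CD21, and marginal zone cells as intermediate for CD23 and high for CD21. The sorted cells were pooled, and about 100 ng of RNA was labelled. Whether both pools came from the same mice is not given in the sources used here.

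With 1 array per population there is no replicate error, no test of a difference and no p-value, and every difference below is a size measured on this pair of arrays. Signals are MAS5 intensities in arbitrary units, scaled to the same trimmed mean. A floor of 12.7, the median of all scaled signals, marks values too close to background to be ordered, and a probe set was measured when at least 1 array lay above it. A fold is "at least" that size where 1 array lay below the floor and the floor took its place. Log2 ratios are marginal zone over follicular, so negative values are higher in follicular cells. A difference of 2-fold was the threshold for a count. Signals of different probe sets depend on their probes and are not set against each other. In bulk RNA, fewer cells with a transcript and less transcript per cell cannot be told apart.

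Cyclic AMP is an intracellular messenger made by adenylate cyclases when receptors activate the stimulatory G protein. It releases the catalytic subunits of PKA from their regulatory subunits, and the freed kinase phosphorylates many proteins, among them CREB factors that bind cyclic AMP response elements (CRE) in promoters. Phosphodiesterases end the signal by hydrolysing the messenger. In lymphocytes a rise of cyclic AMP is known mainly for restraining antigen receptor signalling.

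The largest differences among these genes were in the phosphodiesterases. Pde2a and Pde4b had higher signals on the follicular array, by at least 4.62-fold and by 3.52-fold, and Pde8a had a higher signal on the marginal zone array, by 2.17-fold. Of the 9 genes measured, 2 passed 2-fold toward follicular cells, 1 passed it toward marginal zone cells and 6 differed by less. Pde2a was above the floor only on the follicular array, which fixes its direction. Among all 7695 measured genes, 4.86% passed 2-fold toward follicular and 4.39% toward marginal zone cells. The median log2 ratio was -0.29 over the 9 genes and -0.03 over all measured genes. Each gene is represented in these counts by the probe set that is brightest by mean log2 signal. By probe set, 5 of the 17 measured passed 2-fold toward follicular and 1 toward marginal zone cells. Over all 12847 measured probe sets, the shares were 4.76% and 4.27%. Because the genes were chosen with earlier results of these data known, their counts and median are not independent of that choice.

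**Figure D1:**
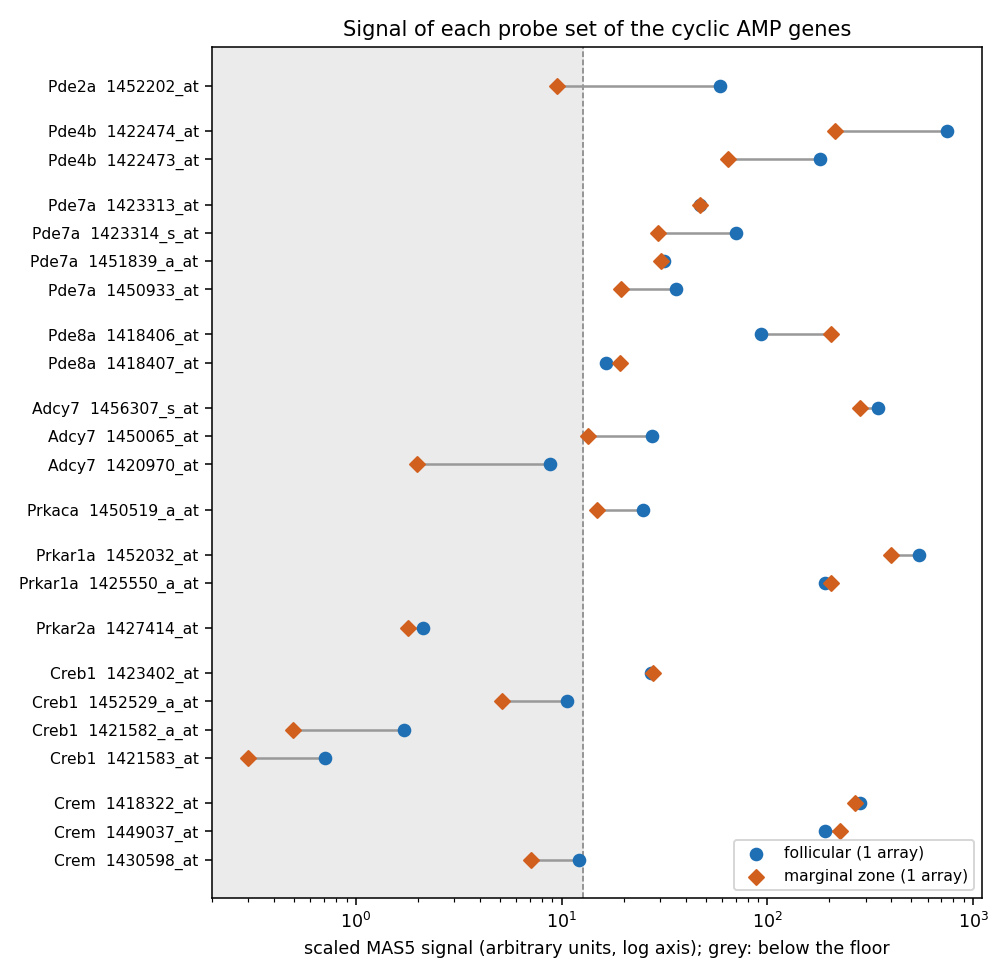
Scaled MAS5 signal (log axis, arbitrary units) of each of the 23 probe sets in follicular (blue circles) and marginal zone (orange diamonds) B cells, 1 array each, with signals below the floor of 12.7 in grey. Both Pde4b probe sets lie to the right in follicular cells, Pde8a runs the other way, and 6 probe sets lie below the floor on both arrays.

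The promoters of the 3 genes past 2-fold are shown where they hold the core of a CRE, because several phosphodiesterase genes are themselves known to respond to cyclic AMP. That of Prkar1a is shown because it alone holds the full palindrome among the 8 of these genes that have a promoter entry. Sequences are from RefSeq on GRCm38.p6, plus strand, 5′ to 3′, with the match in capitals. The windows are chr4:102421510-102421536 for Pde4b, with the match starting at position -34 from the transcript start, chr7:101450523-101450549 for Pde2a (position 15), chr7:81213170-81213196 for Pde8a (position -84) and chr11:109650889-109650918 for Prkar1a (position -49).
Pde4b: atttggctgcaCGTCAattttctcatc
Pde2a: gggcgcaggagCGTCAcggctgctgca
Pde8a: ctgctttgcatTGACGccagcagccgc
Prkar1a: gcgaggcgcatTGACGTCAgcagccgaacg
The motifs searched were the core TGACG, read as CGTCA on the other strand, and the palindrome TGACGTCA, which contains the core on both strands. In windows of 300 bases around transcript starts, the core was present in 9 of 23 promoters of 8 of these genes (39.1%) and in 20.8% of all 32851 promoters. The palindrome was present in 2 overlapping promoters of Prkar1a, which share the site, and in 1.79% of all promoters. Genes with several starts carried the core at only some of them, as at 1 of 4 for Pde4b and 1 of 5 for Pde2a. A match describes the letters only, and these arrays measured no binding. Crem and Pde7a had no entry in the promoter table.

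Pde4b encodes a phosphodiesterase specific for cyclic AMP and is a main form in leukocytes. Its brighter probe set, 1422474_at, had a signal of 747 on the follicular and 212 on the marginal zone array, a log2 ratio of -1.82. The other probe set, at 180 and 64.3, was 2.80-fold stronger on the follicular array, so both probe sets were well above the floor on both arrays and differed in the same direction. The gene ranked 40 among the 7695 measured genes in order of excess in follicular cells. Of the 448 genes whose mean log2 signal lay within 0.5 of that of Pde4b, 4.46% were at least 2-fold stronger on the follicular array.

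Pde2a encodes a phosphodiesterase that hydrolyses cyclic AMP and cyclic GMP and is stimulated by the latter. Its only probe set, 1452202_at, had a signal of 58.5 in follicular cells and 9.50, below the floor, in marginal zone cells. It was measured through the follicular array alone, which fixes its direction. The fold of at least 4.62 put it at rank 15 in order of excess in follicular cells. Its probe set was dim: of 1532 genes of like signal, 8.75% were at least 2-fold stronger on the follicular array, and with the floor raised to the 75th percentile of all signals the log2 ratio shrank to -0.36. The measured genes closest to Pde2a in their floored signals on the 2 arrays were Cables1 (59.3 on the follicular and 10.8 on the marginal zone array), Sox4 (60.4 and 7.03) and Cd93 (52.4 and 5.54), at distances of 0.02, 0.05 and 0.16 on the log2 scale. These genes, like Pde2a, were below the floor on the marginal zone array, so the distances compare the follicular signals alone. A pattern over 2 arrays is a single ratio and a level, so this likeness carries little information.

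Pde8a encodes a high-affinity phosphodiesterase specific for cyclic AMP. By its brighter probe set, 1418406_at, the signal was 93.2 on the follicular and 202 on the marginal zone array, a log2 ratio of 1.12. The dimmer probe set, at 16.4 and 19.1, just above the floor, had the same direction but a log2 ratio of only 0.22. Their mean of 0.67 is below 2-fold. Pde8a was the only one of these 10 genes with the higher signal on the marginal zone array by more than 2-fold, and 4.40% of 954 genes of like signal passed 2-fold in that direction. Macrophage markers, at low signals, also had the higher summed signal on the marginal zone array, 94.4 against 216 over 13 genes. That sum includes signals below the floor, and the part of macrophages in the difference of Pde8a was not tested.

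Pde7a, which encodes another high-affinity enzyme specific for cyclic AMP, gave different answers by probe set. The probe set that represents it, 1423313_at, had signals of 47.2 on the follicular and 47.0 on the marginal zone array. Another of nearly the same brightness, 1423314_s_at, had signals of 69.9 and 29.4 and was 2.38-fold stronger on the follicular array. The remaining pair divided likewise, with 36.1 and 19.4 for 1450933_at, 1.86-fold stronger on the follicular array, and 31.4 and 30.3 for 1451839_a_at. The log2 ratios of the 4 probe sets thus ran from -1.25 to -0.01, and none was higher in marginal zone cells by the scaling used. Suffixes mark probes that match several transcripts of a gene (a) or transcripts that may be of other genes (s). Which transcripts of Pde7a each probe set detects is not given in the sources used here.

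**Figure D2:**
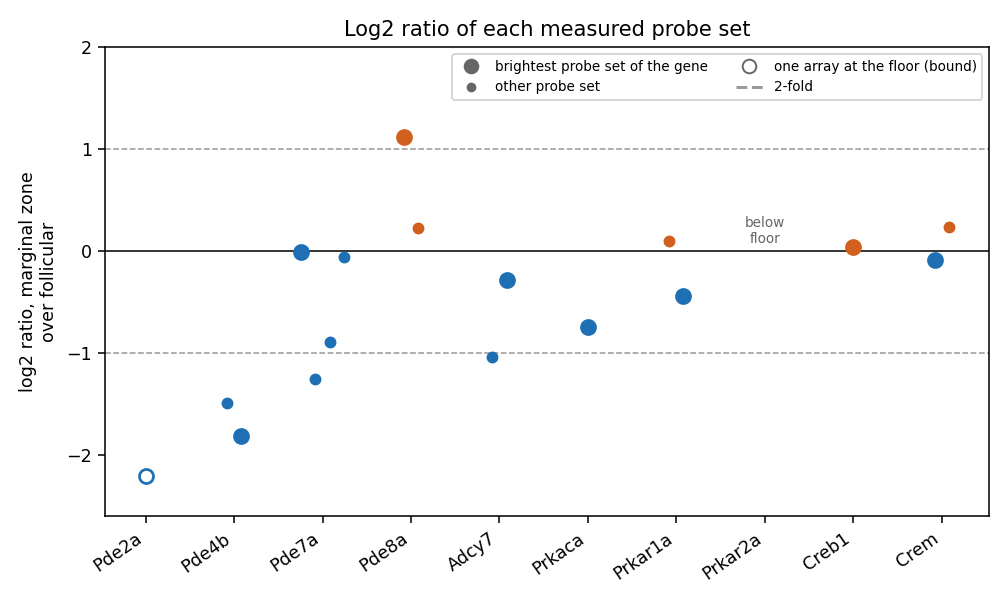
Log2 ratio (marginal zone against follicular signal) for each measured probe set (1 array per population), with 2-fold as dashed lines, large circles for the probe set that represents the gene and an open circle where 1 array was below the floor. The Pde4b probe sets lie together at -1.82 and -1.49, whereas those of Pde7a run from -1.25 to -0.01 and those of Pde8a from 0.22 to 1.12.

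Adcy7 encodes an adenylate cyclase that is abundant in lymphoid and myeloid cells. The brightest of its 3 probe sets had a signal of 344 on the follicular and 282 on the marginal zone array, 1.22-fold stronger on the follicular array. The next, at 27.4 and 13.4, was 2.05-fold stronger on the follicular array with its marginal zone signal just above the floor, and the last was below the floor on both arrays. The brightest carries the suffix for probes that may match other genes. Without it the log2 ratio of Adcy7 was -1.04 in place of -0.29, so the size of this difference depends on the probe set.

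The measured PKA subunits, Prkar1a and Prkaca, differed by less than 2-fold. Prkar1a, the regulatory subunit of type I PKA that holds the kinase inactive until cyclic AMP binds, had signals of 542 on the follicular and 399 on the marginal zone array by its brighter probe set, 1.36-fold stronger on the follicular array. Its other probe set, at 190 and 203, had the opposite sign and a difference of 1.07-fold. Prkaca, the main catalytic subunit, had signals of 24.9 and 14.8, both near the floor, 1.67-fold stronger on the follicular array. Prkar2a, a regulatory subunit of type II PKA, had 1 probe set, at 2.12 and 1.78, and no fold can be given. A probe set below the floor does not show that the transcript was absent.

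The CREB factors had nearly equal signals in both populations. Creb1, the activator that PKA phosphorylates, was above the floor by 1 of its 4 probe sets, with 27.1 on the follicular and 27.8 on the marginal zone array. Crem, whose transcripts encode activators and also repressors, had signals of 283 and 266 by its brightest probe set and 191 and 224 by the next, log2 ratios of -0.09 and 0.23. The spread between probe sets of 1 gene was 0.43 (SD, log2 scale) in 2622 genes that have more than 1 measured probe set. The differences in Creb1 and Crem were smaller than that spread, as were those of Prkar1a by its dimmer and Adcy7 by its brightest probe set, while Pde4b exceeded it by both probe sets. This spread covers probe behaviour on 1 pair of arrays and leaves out variation between mice, sorts and labellings.

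The 6 lists of other pathway genes held 63 genes on the array, of which 41 were measured. Of these, 2 passed 2-fold toward follicular cells (Akap12 and Crtc3) and 2 toward marginal zone cells (Pkib and Sik1), shares near the 4.86% and 4.39% of all measured genes, with a median log2 ratio of -0.21. Crtc3 and Sik1 were each above the floor on only 1 array, which fixes their direction. With a pseudocount added to each signal instead of a floor, Akap12, Pkib and Sik1 were below 2-fold. Their log2 ratios were then -0.84, 0.89 and 0.70, and that of Crtc3 was -1.14. At the production end, all 7 measured cyclases and G protein alpha subunits had somewhat higher signals on the follicular array and none reached 2-fold (median -0.32). Adcy2, at 14.8 on the follicular and 12.4 on the marginal zone array, was above the floor only on the former, which fixes its direction. Of all 7695 measured genes, 4018 had the higher signal there. With each of the 3 other scalings all 7 kept this sign, but it was that of only 5 of 6 genes with unmarked probe sets and 8 of 9 with the floor at the 25th percentile. Gnai2, an inhibitory alpha subunit, was at 443 on the follicular and 311 on the marginal zone array, 1.43-fold stronger on the follicular array. Gnas, the stimulatory subunit, was at 836 and 671 by its brightest probe set and had a log2 ratio of 0.10 by another, so its direction differs between probe sets. Adcy6 and Adcy9, both dim, were 1.29-fold and 1.27-fold stronger on the follicular array.

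Receptors that couple to the stimulatory G protein were represented by 4 measured genes of 8, all within 2-fold, with a median log2 ratio of 0.02. Ptger4, a receptor for prostaglandin E, was bright, at 290 on the follicular and 384 on the marginal zone array, 1.32-fold stronger on the marginal zone array. Gpr65, a proton-sensing receptor, was 1.48-fold stronger on the follicular array at signals of 26.6 and 17.9. Mc1r and Hrh2 crossed the floor on only 1 array, with folds of at least 1.20 in marginal zone and at least 1.16 in follicular cells. Of the 11 other phosphodiesterase genes on the array, 9 were not measured. The exceptions were Pde1b, at 31.5 and 34.0, and Pde4a, at 5.86 and 13.1, the former below the floor.

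Among other PKA genes, 11 of 14 were measured, with a median log2 ratio of -0.04. Pkib, an inhibitor of the PKA catalytic subunit, was at 62.9 on the follicular and 128 on the marginal zone array, 2.03-fold stronger on the marginal zone array, and its other probe set had a log2 ratio of 0.57. Pkig, an inhibitor of the same family, went the other way, at 423 and 266, 1.59-fold stronger on the follicular array. Akap12, a scaffold that anchors PKA near the plasma membrane, was at 41.5 and 17.5, 2.37-fold stronger on the follicular array. Akap8, an anchor in the nucleus, was at 357 and 206, 1.74-fold stronger on the follicular array, and Akap2 was 1.55-fold stronger on the marginal zone array. Prkacb, the other widely expressed catalytic subunit, was at 56.9 and 73.6, 1.29-fold stronger on the marginal zone array.

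**Figure D3:**
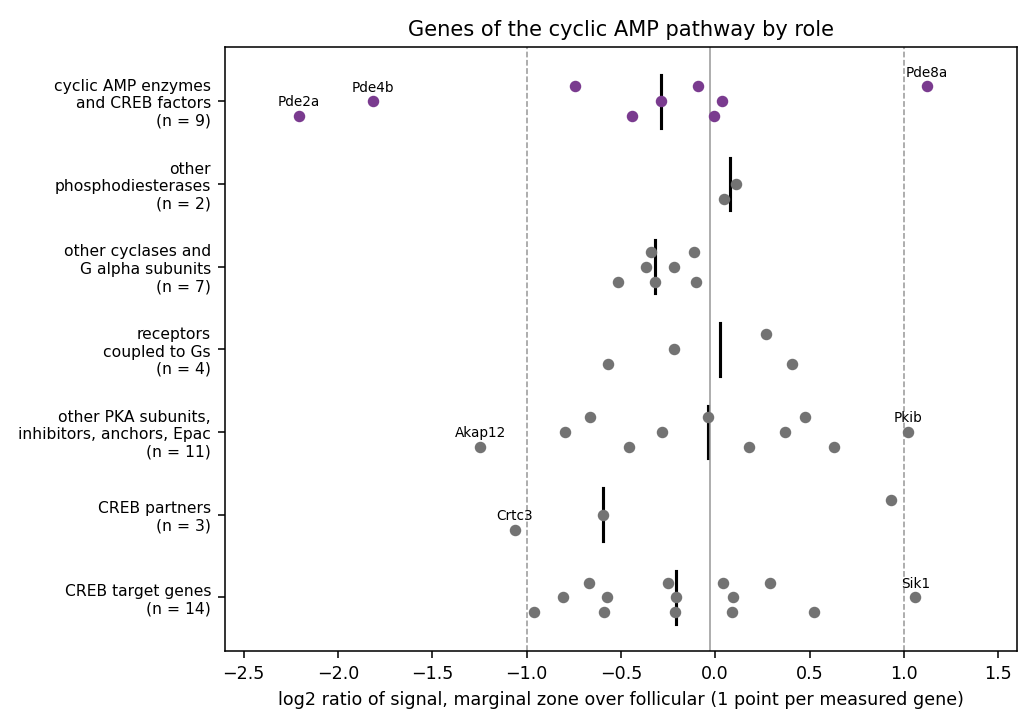
Log2 ratio (marginal zone against follicular signal) for each measured gene of the 10 described (purple) and of 6 lists of other pathway genes (grey), with black bars at list medians, a grey line at the median of all measured genes and dashed lines at 2-fold. Pde2a and Pde4b lie at -2.21 and -1.82, and no gene of the other lists lies below -1.25.

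The CREB partners were 3 measured genes. The coactivators Crtc2 and Crtc3, which enter the nucleus when cyclic AMP rises, had opposite signs: Crtc2 was at 17.4 on the follicular and 33.2 on the marginal zone array, 1.91-fold stronger on the marginal zone array, and Crtc3 was at 26.5 and 5.05, at least 2.09-fold stronger on the follicular array. Crebbp, the acetyltransferase that binds phosphorylated CREB, was at 146 and 96.2, 1.51-fold stronger on the follicular array. Of 14 measured CREB target genes, 13 were within 2-fold, as were 6983 of all 7695 measured genes, and the median log2 ratio was -0.21. Sik1, a kinase that keeps the CRTC coactivators out of the nucleus, was at 11.3 and 26.4, at least 2.09-fold stronger on the marginal zone array. The target genes with the next largest ratios, Junb (110 and 56.6), Ier2 (373 and 214) and Fos (847 and 533), were 1.94-fold, 1.75-fold and 1.59-fold stronger on the follicular array. The related Fosb was at 47.3 and 57.9, and Nr4a2 had a log2 ratio of 0.10 by its brighter probe set and a mean of 0.80 over both, toward marginal zone cells like Fosb. These genes also respond to many signals other than cyclic AMP. The CRE core was present in 15 of 21 promoters (71.4%) of the target genes that have an entry in the promoter table, measured or not, and in 20.8% of all promoters. The list names known CREB targets, so this share is not independent of how its genes were chosen.

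The transcripts of the gated markers differed as the gates did. Fcer2a (CD23) had signals of 727 on the follicular and 89.6 on the marginal zone array. Cr2 (CD21) was at 278 and 890, and both differences reflect the sort itself. Ptprc (B220), the target of the enrichment beads, was at 1901 and 1987. The 5 B cell markers summed to 3190 and 2949, with a median log2 ratio of -0.32. Of these Ms4a1 was at 1754 and 1878, Cd79b at 1040 and 546, Cd79a at 197 and 116, Pax5 at 20.7 and 16.6 and the kinase gene Blk at 179 and 393. Macrophage and monocyte markers were higher on the marginal zone array, with signals summed over 13 genes of 94.4 on the follicular and 216 on the marginal zone array. Of that list Csf1r, Adgre1 and Lyz2 were above the floor on both arrays, C1qb, Cd14, Cd68, Vcam1 and Cd5l only on the marginal zone array, which fixes their direction, and C1qa, C1qc, Marco, Mertk and Itgam on neither. T cell markers, at low signals, summed to 44.7 on the follicular and 22.5 on the marginal zone array over 8 genes. Of that list Cd3e (17.2) and Cd4 (13.9) were above the floor in follicular cells only, which fixes their direction. Cd3d, Cd3g, Cd8a, Cd8b1, Thy1 and Cd28 were below it on both arrays. Erythroid markers summed to 55.3 and 23.3 over 4 genes, natural killer cell markers to 44.3 and 63.1 over 5, granulocyte markers to 57.4 and 75.5 over 7, dendritic cell markers to 40.2 and 61.7 over 5, platelet markers to 24.3 and 30.9 over 4 and plasma cell markers to 1032 and 1250.4 over 6. All these sums include signals below the floor that were not raised to it, so they are not to be read as folds. On the marginal zone array every erythroid signal (at most 7.62) and T cell signal (at most 5.54) lay below the floor. Past 2-fold among the markers were Csf1r (17.3 and 42.5), Cd5l (11.1 and 26.7), Prdm1 (12.7 and 30.9) and Blk toward marginal zone cells and Sdc1 (68.3 and 4.35) toward follicular cells. By this probe set Sdc1 was above the floor only on the follicular array, which fixes its direction. Over their measured probe sets, the log2 ratios of Csf1r ran from 0.17 to 1.70 and those of Sdc1 from -2.43 to -0.32. The part of other cells in the differences of Pde8a, Pde2a or Pde4b was not tested.

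**Figure D4:**
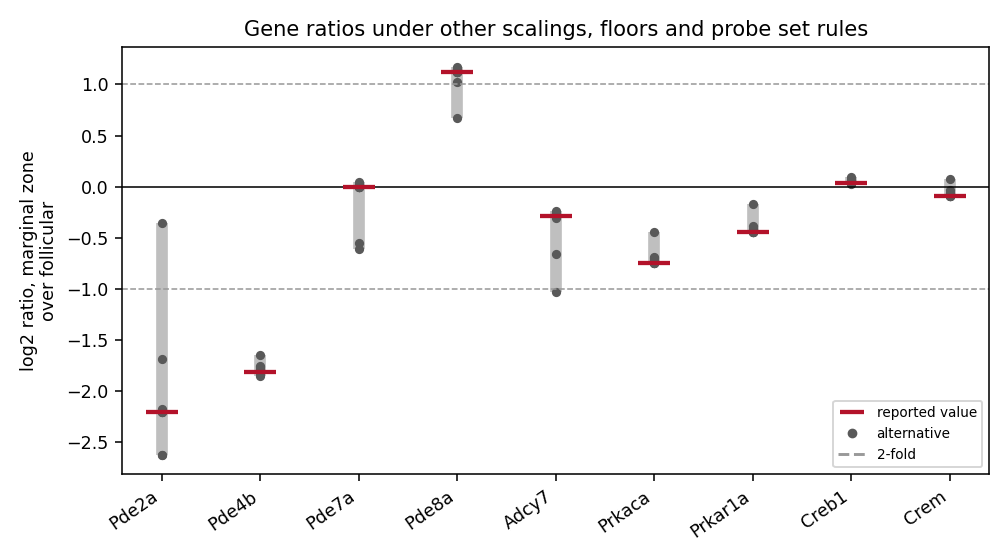
Log2 ratio (marginal zone against follicular signal) for the 9 measured genes as reported (red bars) and under up to 10 alternative scalings, floors and probe set rules (dots), with 2-fold as dashed lines. Pde4b stays between -1.85 and -1.65, while Pde2a runs from -2.62 to -0.36 and Pde8a from 0.67 to 1.17.

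Across the alternatives plotted for each gene, Pde4b was at least 2-fold stronger on the follicular array under all 10. Pde2a was so under 9 of 10, the exception being the floor at the 75th percentile. Pde8a was at least 2-fold stronger on the marginal zone array under 9 of 10, the exception being the mean of its probe sets. These tallies include alternatives that could not change a value. The 3 floor settings, no filter and unmarked probe sets left Pde4b at -1.82 and Pde8a at 1.12. No filter and both probe set rules left Pde2a, with its only probe set, at -2.21. The log2 ratio of Pde7a moved to -0.61 with the floor at the 75th percentile and to -0.55 with the mean of its probe sets. The sign of Pde7a turned positive under the 3 other scalings, at 0.05 at most, and that of Crem with the mean of its probe sets (0.07).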

How the data were processed

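The authors deposited linear signal intensities made with MAS5, as the submitters' processing notes name it, with 1 value for a probe set on each array. No source used here gives its version, its scaling target or detection calls. A common 2% trimmed mean was set for both arrays (factors 1.01 for follicular and 0.990 for marginal zone), signals were raised to a floor at their median (12.7), and log2 ratios were taken. Probe sets were named from the platform annotation: 20380 had 1 gene, 691 several and 1555 were not listed; 20351 identifiers matched RefSeq genes of GRCm38.p6. No coordinates of probe sets are given, since no build is named for the values. The procedure was tested on simulated data with Python 3.11.15, numpy 2.4.6, pandas 2.3.3 and scipy 1.17.1. The simulation planted differences only in bright genes, with noise smaller than the spread between probe sets found here. It therefore does not bear on dim genes or on values at the floor.

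The genes and lists were chosen with earlier results of these data known. Named are all 10 genes and, of each pathway list, up to 4 measured genes with the largest absolute log2 ratio and any past 2-fold; the sort genes; of marker lists, sums and any gene past 2-fold; and the 3 genes nearest to the member that differs most. Prkacb, Akap2, Fosb, Nr4a2 and the markers within 2-fold were chosen with their values in view. The alternatives were 3 scalings, 3 floor settings, a pseudocount of 12.7, no filter on dim probe sets, 2 probe set rules and 2 thresholds. Precision is limited by having only 2 arrays.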

Additional observations from a re-analysis of the deposited data

How the results depend on the processing

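No paired analysis was possible because each population has 1 array. A change was counted as a move when it exceeded the spread between probe sets (0.43, log2 scale) or, for counts, 1.5 times. The 3 scalings moved none of the counts or list medians so far, and they moved the median of all genes only between -0.03 and 0.02. The floor mattered more. With it at the 75th percentile, 1 gene and 2 probe sets of the cyclic AMP set were past 2-fold in follicular cells, with 0 and 1 pathway genes higher in follicular and marginal zone cells. With it at the 25th percentile the pathway genes numbered 7 and 8, and with no floor 6 were higher in marginal zone cells and the median of the other phosphodiesterases was 0.63. A pseudocount left 3 probe sets of the set higher in follicular cells, and 1 and 0 pathway genes. Under the mean of probe sets, 0 genes of the set and 1 pathway gene were higher in marginal zone cells; with unmarked probe sets only, 1 pathway gene was past 2-fold in each direction. At 1.5-fold the pathway genes numbered 9 and 4. At 3-fold they numbered 0 and 0, and of the set 2 probe sets were higher in follicular and 0 genes and 0 probe sets in marginal zone cells. The pathway counts are to be read beside those of all genes, which rose too. Of 7695 measured genes, 374 and 338 (follicular, marginal zone) were past 2-fold in the main setting and 872 and 782 with no floor. With the lower floor the counts were 1382 and 1277 of 11035 genes, and with the higher floor 143 and 125 of 3907. Of 7695 genes, 1218 and 1047 passed 1.5-fold and 67 and 66 passed 3-fold. The balance turned with scaling: 346 and 364 unscaled, 324 and 381 with median scaling and 355 and 359 with quantile normalization. The median of the other phosphodiesterases could not be computed with the higher floor, where none was measured.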

Other observations

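Genes with the CRE palindrome were also described across the whole array, a choice made after the values above were seen. Of 230 measured genes with TGACGTCA in a promoter window, 9 (3.91%) passed 2-fold toward follicular and 9 toward marginal zone cells, and the median log2 ratio was 0.03. Of 6041 measured genes with promoters in the table and no such match, 4.77% passed it toward follicular and 4.20% toward marginal zone cells, and the median was -0.03. No test was made between these sets.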
